A study of Mus musculus with 24 samples.

Results

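The 37 genes described here encode mouse aminoacyl-tRNA synthetases, the enzymes that load each amino acid onto its transfer RNA. They were picked out by a rule on gene names from the 43346 genes of a count table of mouse gastrocnemius, the large calf muscle: protein-coding genes named with 1 letter for the amino acid followed by ars or ars2, together with Eprs, Farsa and Farsb. The rule itself uses no measured value. Of the 37 genes, 20 are counted here as cytosolic and 17, whose names end in 2, as mitochondrial. All 37 passed the filter on low counts and were tested among 17773 genes. Tumours were raised in female and male C57BL6 mice, aged 7 weeks, by subcutaneous injection of LLC1, a murine lung adenocarcinoma line known as Lewis lung carcinoma. Control animals received the vehicle, PBS, and 3 weeks were allowed for growth. The groups were female LLC1, female vehicle, male LLC1 and male vehicle, with 6 mice each. LLC1 is 1 transplanted line in mice of 1 strain, and the vehicle mice received no cells. The 24 libraries were made from poly(A) RNA of whole muscle, and each was taken as a separate mouse because the titles number them so. The p-values therefore measure the spread between these libraries.

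Synthetases set the first step of protein synthesis. In mammals most amino acids have a pair of enzymes, one for the cytosol and one for the mitochondrial matrix, both encoded in the nucleus. Gars and Kars each encode both the cytosolic and the mitochondrial form of their enzyme, and are counted here as cytosolic. No second gene is needed for glutamine, because mitochondria make glutaminyl-tRNA from glutamyl-tRNA made by Ears2. Several cytosolic synthetases sit together in a large multisynthetase complex held by the scaffold proteins Aimp1, Aimp2 and Eef1e1. Many cytosolic synthetase genes, but few mitochondrial ones, are textbook targets of ATF4, the transcription factor of the integrated stress response, which is itself controlled largely at translation. Muscle wasting with tumours, for which LLC1 is a common model, involves a changed balance of protein synthesis and breakdown.

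A library held between 26.2 and 47.4 mega-counts. By the sample descriptions each group was run on a lane of its own: the effect of lane cannot be told apart from that of group. Muscle markers were abundant in all mice, with a summed level of 152800 to 237600 CPM (counts per mega-count of the normalised library) in LLC1 mice and 185200 to 239100 CPM in vehicle mice. Of the 12 muscle markers, 3 were lower in female and 4 in male LLC1 mice. At an adjusted p under 0.05, 4.95% of all genes were lower and 4.97% higher in females. In males 16.8% of all genes were lower and 19.5% higher. Casq1, Mylpf and Pvalb were lower in both sexes, with log2 fold changes of -0.86, -0.56 and -0.63 in females and -1.05, -0.50 and -0.53 in males, and Myh1 was lower in males (-0.34). All 13 neutrophil markers rose in both sexes, among them S100a9 (log2 fold change 6.30 in females and 6.30 in males), with summed levels of 73.7 to 205 CPM in LLC1 mice and 3.501 to 9.786 CPM in vehicle mice. All 7 erythroid markers also rose in both sexes, among them Slc4a1, and their sum was 1211 to 19990 CPM in LLC1 mice and 426 to 1083 CPM in vehicle mice. None of the 13 tested macrophage and monocyte markers passed in females, and in males 1 rose, Itgam (0.78), and 1 fell. Their summed level was 171 to 403 CPM in LLC1 mice and 180 to 396 CPM in vehicle mice. Epithelial markers of a carcinoma were near 0: 3 of 7 could be tested and none passed, Epcam was at most 0.22 CPM in any LLC1 mouse and 0.28 CPM in any vehicle mouse, and their sum was at most 3.90 CPM in LLC1 mice and 4.04 CPM in vehicle mice. In bulk muscle, fewer cells of a type and less RNA per cell cannot be told apart, and the part of these other cells in the results below was not tested.

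Per kilobase of exon, cytosolic synthetases mostly stood at higher levels than mitochondrial ones. The exon length used is the one given with the counts, and it can exceed that of a transcript. For Aars it is 9282 bases, against 5750 in its longest coding transcript in GENCODE M21. The order of the genes by level is therefore approximate. Their means over the 24 libraries ran from 5.03 CPM per kilobase for Farsa to 47.0 for Nars, with a median of 17.8 over the 20 genes. Without Lars2, the 16 mitochondrial genes ran from 0.83 CPM per kilobase for Pars2 to 9.45 for Iars2, with a median of 3.30. Nars and Kars, for asparagine and lysine, led the cytosolic genes at 47.0 ± 9.11 and 43.9 ± 3.24 CPM per kilobase (SD, n = 24), within each other's spread. Pars2, the mitochondrial prolyl enzyme, had the lowest level at 0.83 ± 0.17 and lay within the spread of Mars2 at 0.91 ± 0.11 CPM per kilobase (SD, n = 24). Kars and Gars, whose products serve both compartments, ranked among the top cytosolic genes.

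**Figure D1:**
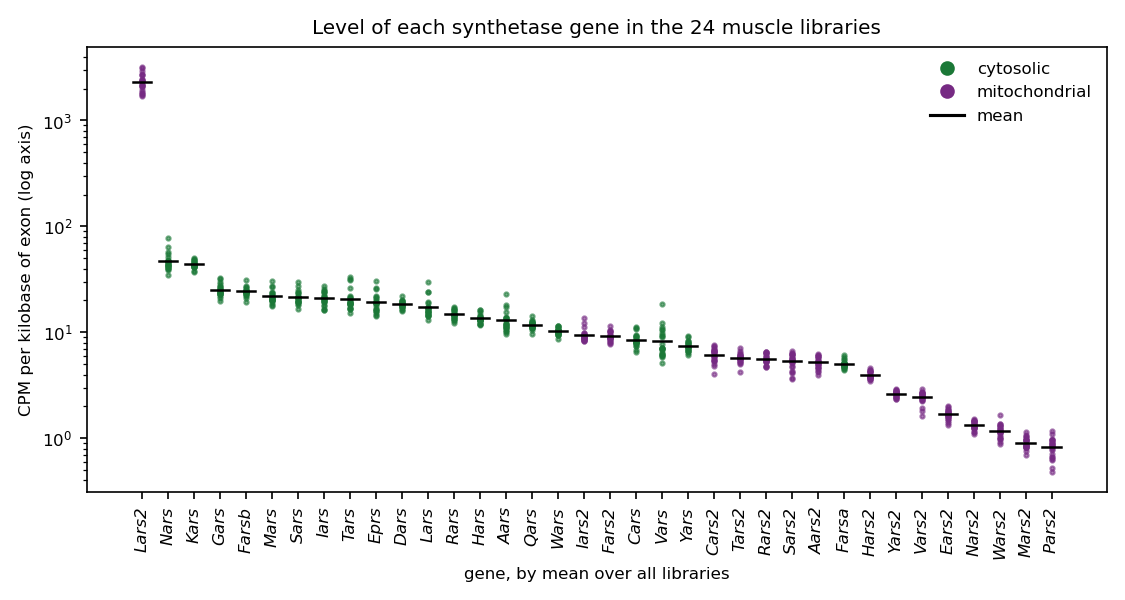
Level of the synthetase genes in CPM per kilobase of exon on a log axis, genes ordered by mean, 1 mitochondrial gene not shown. Points are the 24 libraries, green for cytosolic and purple for mitochondrial genes, and black lines are means. Lars2 stands at 2306 CPM per kilobase, far above all others, and most mitochondrial genes lie to the right, below 9.45.

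Lars2 (chromosome 9, 123366940 to 123462664, mm10), the mitochondrial leucyl enzyme, stood apart and its counts are uncertain. It averaged 2306 CPM per kilobase, took 82.4% of the counts of all 37 genes and 0.684% to 1.24% of all counts in a library. A stretch of 72 bases of its coding transcript in GENCODE M21, at positions 3278 to 3349, is 98.6% identical to the non-coding RNA Gm15564, whose counts were 3.07% to 4.56% of those of Lars2. Whether reads of other transcripts enter its count was not tested. It is kept in all counts below.

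In male mice with LLC1, most cytosolic synthetase genes were higher than in vehicle mice, while the mitochondrial genes were mixed, with more lower than higher. Among the 20 cytosolic genes 13 were higher in LLC1 than in vehicle males, 0 were lower and 7 did not pass an adjusted p of 0.05. Over all genes tested 36.3% were called in this comparison, 19.5% as higher and 16.8% as lower. The log2 fold change was positive for 19 of the 20, with a median of 0.23, against 0.01 over all genes. Of the 17 mitochondrial genes 5 were lower, 2 were higher and 10 did not pass. Their share called, 7 of 17, was near the background, but 13 of the 17 had a negative fold change, with a median of -0.14. LLC1 and vehicle males did not overlap in 10.3% of all genes, and in 3 of the 37: Ears2, with LLC1 above, and Vars2 and Sars2, with LLC1 below.

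**Figure D2:**
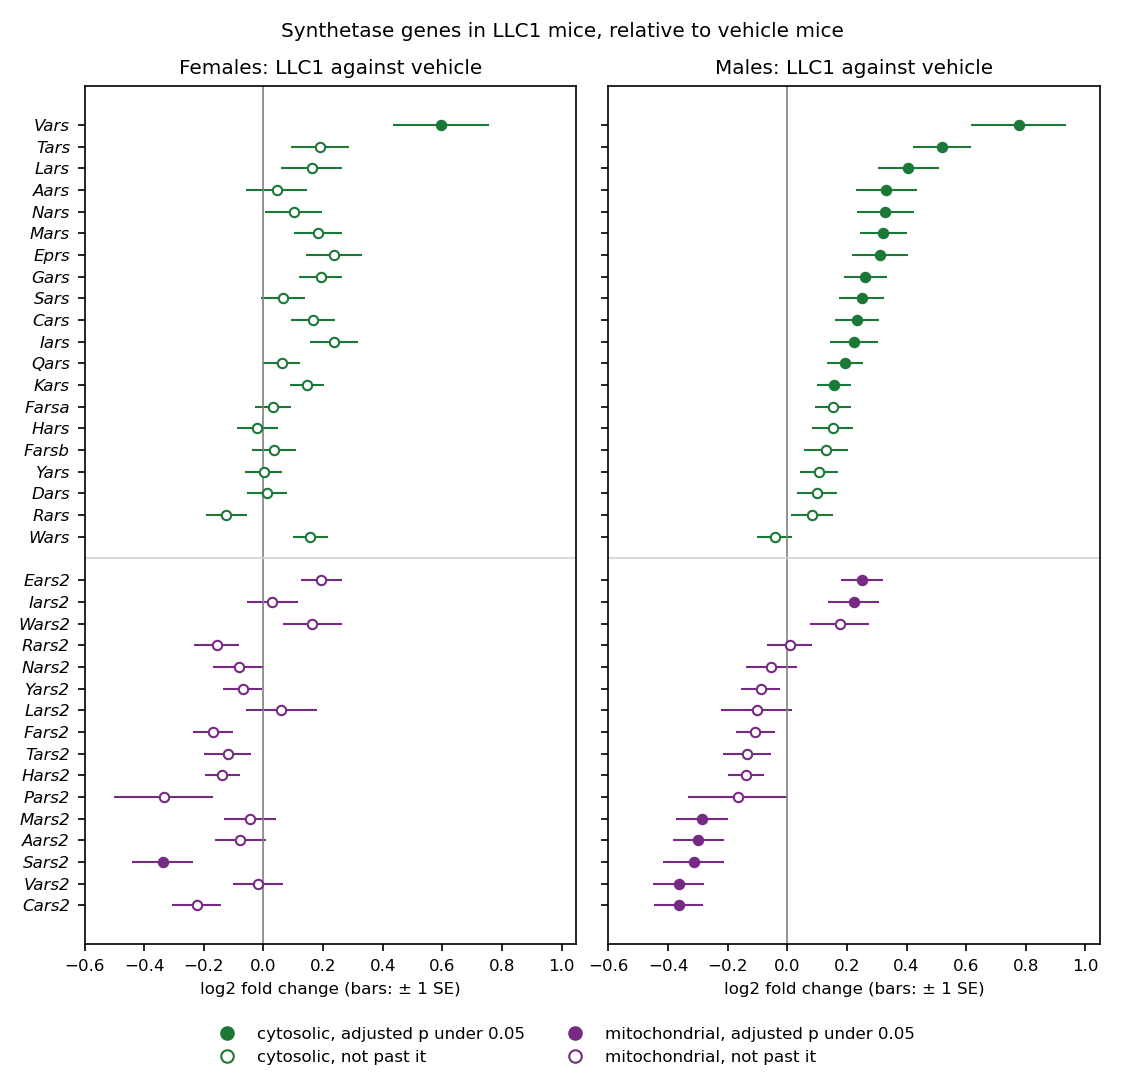
Log2 fold change of the synthetase genes in LLC1 against same-sex vehicle mice, females left and males right, with 1 SE and 1 mitochondrial gene not shown; filled points passed an adjusted p of 0.05. Cytosolic genes (green) run from -0.04 to 0.78 in males and from -0.12 to 0.60 in females, and mitochondrial genes (purple) lie mostly below 0.

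Vars (chromosome 17, 35000987 to 35016322), the cytosolic valyl enzyme, had the largest fold change of the 37 genes in both sexes. In male LLC1 mice it ran from 39.3 over a median of 61.7 to 105 CPM, and in male vehicle mice from 33.7 over 36.6 to 39.5 CPM. The lowest LLC1 mouse, at 39.3 CPM, lay just inside the vehicle range and the other 5 lay above it. The difference on the log2 scale was 0.78 ± 0.16 (SE, adjusted p = 0.000892, edgeR quasi-likelihood test).

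Tars (chromosome 15, 11383663 to 11399658), which charges threonine, had the smallest p of the family. Its levels were 55.4 to 87.1 CPM with a median of 76.3 in male LLC1 mice, and 44.6 to 56.5 CPM with a median of 50.15 in male vehicle mice. The 2 lowest LLC1 mice reached into the vehicle range and the other 4 lay above it. The log2 fold change was 0.52 ± 0.10 (adjusted p = 0.000397).

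Lars (chromosome 18, 42202350 to 42262122) and Mars (chromosome 10, 127296221 to 127311786) charge leucine and methionine and belong to the multisynthetase complex. Lars had 64.9 to 115 CPM with a median of 83.3 in male LLC1 mice, and 54.8 to 73.7 CPM with a median of 63.5 in male vehicle mice (log2 fold change 0.41 ± 0.10, adjusted p = 0.00383). Mars had 68.9 to 105.5 CPM with a median of 86.0 in male LLC1 mice, and 60.7 to 73.8 CPM with a median of 69.5 in male vehicle mice (0.32 ± 0.08, adjusted p = 0.00315). For both genes the groups overlapped in their lower LLC1 mice. Mars shares 1.99% of its exon length with Ddit3 on the other strand, a gene with 0.165 times its counts.

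Eprs (chromosome 1, 185363044 to 185428360), which carries the glutamyl and prolyl enzymes on 1 chain, was the cytosolic gene with the most reads. It had 340 to 556 CPM with a median of 429 in male LLC1 mice, and 289 to 396 CPM with a median of 351 in male vehicle mice. The groups overlapped, and the log2 fold change was 0.31 ± 0.09 (adjusted p = 0.0122).

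Gars (chromosome 6, 55038001 to 55079504), the glycyl enzyme of both compartments, had 54.9 to 77.8 CPM with a median of 70.1 in male LLC1 mice, and 52.9 to 59.8 CPM with a median of 58.3 in male vehicle mice (log2 fold change 0.26 ± 0.07, adjusted p = 0.00671). Nars (chromosome 18, 64499665 to 64516557), for asparagine, had 123 to 204 CPM with a median of 148 in male LLC1 mice, and 106 to 135 CPM with a median of 122 in male vehicle mice (0.33 ± 0.10, adjusted p = 0.0103). Sars (chromosome 3, 108424865 to 108445209), for serine, had 80.1 to 109.6 CPM with a median of 90.4 in male LLC1 mice, and 72.6 to 86.8 CPM with a median of 77.5 in male vehicle mice (0.25 ± 0.07, adjusted p = 0.0113). In each of the 3 genes the top of the LLC1 group exceeded every vehicle mouse while its bottom did not.

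The other 5 called cytosolic genes had log2 fold changes from 0.16 to 0.33. Aars, for alanine, rose by 0.33 ± 0.10 and Cars, for cysteine, by 0.23 ± 0.07. Qars, for glutamine, rose by 0.19 ± 0.06, Iars, for isoleucine, by 0.22 ± 0.08, and Kars, for lysine, by 0.16 ± 0.06. These calls were less firm than the 8 above, which passed without any single mouse. Aars shares 1326 bases of its GENCODE M21 transcript with Exosc6, which had 0 counts, so its counts may hold reads of both. It did not pass without male LLC1 mouse 1-5 (adjusted p = 0.0564) and Cars and Qars did not pass without male vehicle mouse 1-3 (0.0551 and 0.0594). Iars passed without male LLC1 mouse 1-4 or 2-2 or male vehicle mouse 1-1, 1-2, 2-4 or 2-5, and not without any of the other 6 mice (adjusted p up to 0.105). Kars passed without male LLC1 mouse 1-4 or male vehicle mouse 1-2 or 1-4, and not without any of the other 9 (up to 0.115). Iars, Kars and Qars also did not pass with upper-quartile factors, with no filter on low counts or in a fit of the 2 male groups alone, and Aars and Eprs did not pass in that fit.

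The cytosolic genes that did not pass in males were Farsa, Hars, Farsb, Yars, Dars, Rars and Wars, with log2 fold changes from -0.04 to 0.15. Farsa and Farsb encode the subunits of the phenylalanyl enzyme and had fold changes of 0.15 ± 0.06 (adjusted p = 0.0522) and 0.13 ± 0.07 (0.171). Wars, for tryptophan, which is known to respond to interferon-gamma, was the only cytosolic gene with a negative value, -0.04 ± 0.06 (0.606). Its levels were 32.4 to 37.2 CPM in male LLC1 mice and 34.1 to 39.2 CPM in male vehicle mice.

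**Figure D3:**
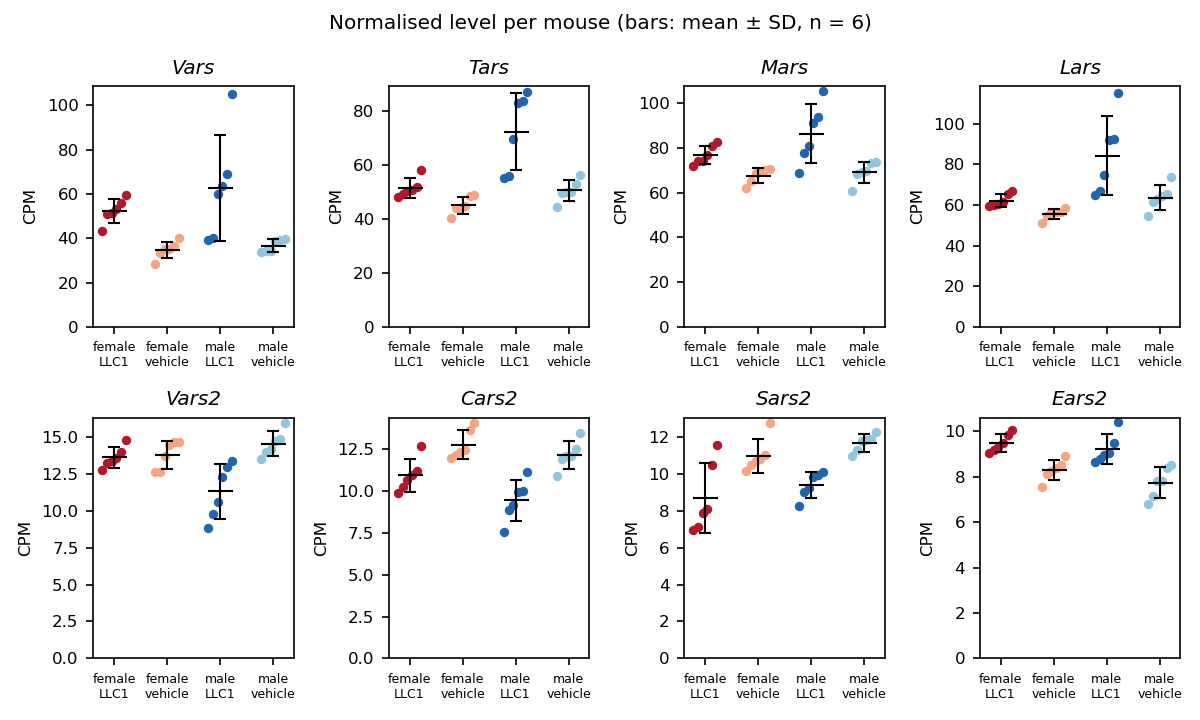
Level of 8 synthetase genes in each mouse in CPM, with LLC1 left of vehicle in each sex; black bars are the mean and SD of 6 mice. Vars, Tars, Mars and Lars spread widely among male LLC1 mice, up to 105, 87.1, 105.5 and 115 CPM. In male LLC1 mice Vars2 and Sars2 lie below, and Ears2 above, all male vehicle mice.

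Among the mitochondrial genes, Vars2 (chromosome 17, 35655634 to 35667592), the mitochondrial valyl enzyme, moved opposite to Vars. It had 8.84 to 13.4 CPM with a median of 11.5 in male LLC1 mice, and 13.5 to 16.0 CPM with a median of 14.5 in male vehicle mice. Every LLC1 mouse lay below every vehicle mouse, as was the case in this direction for 5.35% of all genes tested. The log2 fold change was -0.36 ± 0.08 (adjusted p = 0.00207). The non-coding gene Gm20483 overlaps 8.52% of its exon length on the other strand, with 0.096 times its counts.

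Cars2 (chromosome 8, 11514021 to 11550771), for cysteine, had 7.54 to 11.1 CPM with a median of 9.59 in male LLC1 mice, and 10.9 to 13.5 CPM with a median of 12.1 in male vehicle mice. Only the highest LLC1 mouse reached the vehicle range, and the log2 fold change was -0.36 ± 0.08 (adjusted p = 0.00178). Naxd, which overlaps Cars2 by 422 bases on the other strand and has 2.10 times its counts, rose by 0.28 ± 0.07 (adjusted p = 0.00208). These bases are 5.83% of the exon length of Cars2 in GENCODE M21. The exon length given with the counts is shorter, at 1846 bases, so their share of the counted exons may be larger.

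Aars2 (chromosome 17, 45506841 to 45520842) and Mars2 (chromosome 1, 55237177 to 55248470) charge mitochondrial alanine and methionine transfer RNAs. Aars2 had 13.3 to 17.5 CPM with a median of 15.5 in male LLC1 mice, and 16.4 to 20.5 CPM, with middle values of 19.9 and 20.1, in male vehicle mice (log2 fold change -0.30 ± 0.09, adjusted p = 0.00959). Mars2 had 7.79 to 9.79 CPM with a median of 9.36 in male LLC1 mice, and 9.68 to 13.1 CPM with a median of 10.98 in male vehicle mice (-0.29 ± 0.09, adjusted p = 0.0129). Both groups overlapped at the edge only.

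Sars2 (chromosome 7, 28741968 to 28753879), for serine, fell in both sexes. In males it had 8.25 to 10.1 CPM with a median of 9.57 in LLC1 mice, and 10.97 to 12.3 CPM with a median of 11.8 in vehicle mice, with no overlap. The log2 fold change was -0.31 ± 0.10 (adjusted p = 0.0190, and 0.0529 without male LLC1 mouse 2-4).

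Ears2 and Iars2 were the mitochondrial genes called as higher in males. Ears2 (chromosome 7, 122037213 to 122067263), for glutamate, had 8.65 to 10.4 CPM with a median of 9.01 in male LLC1 mice, and 6.81 to 8.52 CPM with a median of 7.81 in male vehicle mice. All LLC1 mice lay above all vehicle mice, which held in this direction for 4.96% of genes tested, and the log2 fold change was 0.25 ± 0.07 (adjusted p = 0.00714). Ubfd1, on the other strand, overlaps 1.73% of its exon length, has 4.09 times its counts and rose by 0.94 ± 0.19. Iars2, for isoleucine, rose by 0.22 ± 0.09 (adjusted p = 0.0432). Rab3gap2 covers 22.9% of its exon length on the other strand with 0.482 times its counts and rose by 0.27 ± 0.07. Iars2 passed without male LLC1 mouse 1-4, 2-2 or 2-5 or male vehicle mouse 2-4, and not without any of the other 8 (adjusted p up to 0.155). It did not pass in limma-voom, with upper-quartile factors, with no filter or in a fit of the 2 male groups alone. The library kit keeps no strand, so reads of Rab3gap2 and Ubfd1 in the overlap cannot be told apart from those of Iars2 and Ears2. How such reads were counted is not given, and their part in these values was not tested.

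The remaining 10 mitochondrial genes did not pass in males. Wars2, for tryptophan, had the highest log2 fold change of them, 0.18 ± 0.10 (adjusted p = 0.167). Lars2 was among them at -0.10 ± 0.12 (adjusted p = 0.525), with 8422 to 12260 CPM in male LLC1 mice and 8160 to 12340 CPM in male vehicle mice. Without Lars2 the mitochondrial median stayed at -0.14.

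Set side by side by amino acid, the cytosolic gene had the more positive fold change in 16 of 18 pairs in males, with differences in log2 fold change from -0.22 to 1.14 and a median of 0.35. Vars and Vars2 were the widest pair, at 0.78 and -0.36. Tars and Tars2 stood at 0.52 and -0.14, Aars and Aars2 at 0.33 and -0.30, and Mars and Mars2 at 0.32 and -0.29. The exceptions were Wars and Wars2, at -0.04 and 0.18, and Iars and Iars2, both at 0.22. In females the cytosolic member was the more positive in 17 of 18 pairs, with a median difference of 0.19. Eprs is counted in 2 pairs, with Ears2 and Pars2, and Fars2 with both Farsa and Farsb, so the pairs are not independent and were not tested as a set.

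The mean log2 CPM of the 20 cytosolic genes minus that of the 17 mitochondrial genes gave 1 value per mouse. In male LLC1 mice it was 1.83, 2.01, 2.07, 2.10, 2.22 and 2.41, and in male vehicle mice 1.68, 1.69, 1.72, 1.77, 1.78 and 1.85. The lowest LLC1 mouse, 1-4, lay inside the vehicle range and the other 5 above it, and the means differed by 0.36. In female LLC1 mice it was 1.79, 1.87, 1.88, 1.90, 1.92 and 2.05, and in female vehicle mice 1.60, 1.65, 1.67, 1.71, 1.72 and 1.77. All 6 female LLC1 mice lay above all 6 female vehicle mice, and the means differed by 0.21. With medians over genes in place of means, the male difference was 0.59. Without Lars2 the differences were 0.36 in males and 0.22 in females, and with any 1 mouse left out both stayed positive. No p is given, because the genes were known to have moved in these mice.

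**Figure D4:**
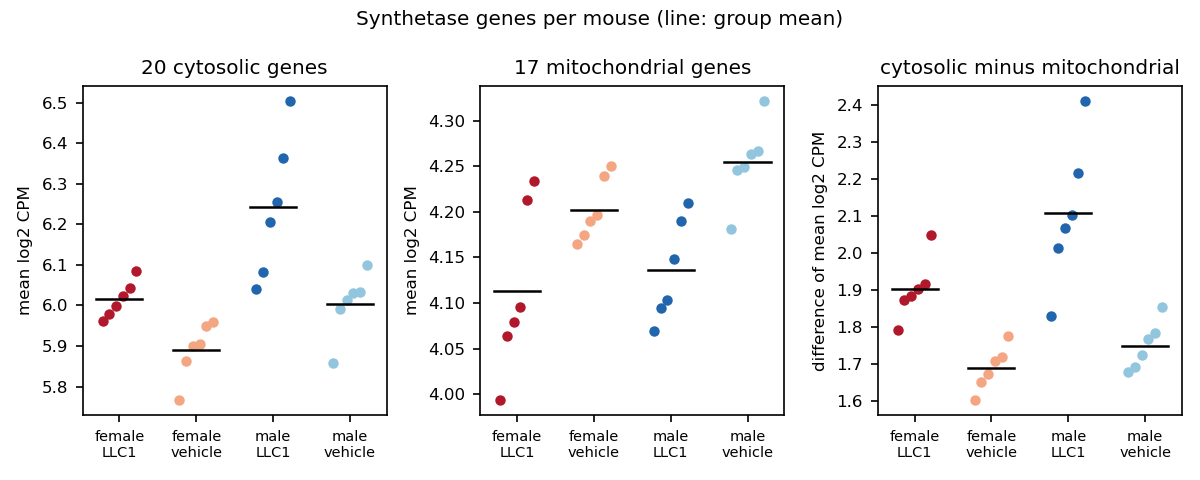
Mean log2 CPM of the 20 cytosolic genes, of the 17 mitochondrial genes, and their difference in each mouse, LLC1 left of vehicle in each sex, lines at group means. The difference is 1.83 to 2.41 in male LLC1 and 1.68 to 1.85 in male vehicle mice, and 1.79 to 2.05 in female LLC1 and 1.60 to 1.77 in female vehicle mice.

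Male LLC1 mice differed widely among themselves. Relative to the mean of male vehicle mice, 20 of 20 cytosolic genes were higher in mouse 2-4, 19 in mouse 1-5, 18 in mouse 2-1 and 17 in mouse 2-5, but 16 in mouse 2-2 and 13 in mouse 1-4. The median deviation of the cytosolic genes was 0.40 in mouse 1-5 and 0.35 in mouse 2-4, against 0.08 in mouse 2-2 and 0.05 in mouse 1-4. Over the mitochondrial genes the medians were all negative, from -0.17 to -0.04. Female LLC1 mice were closer together, with 13 to 18 cytosolic genes higher and cytosolic medians of 0.04 to 0.21. Among them mice 2-4 and 2-5 had mitochondrial medians of 0.01 and 0.01, and the other 4 had medians from -0.23 to -0.10. Vehicle mice, set against the mean of their own group, varied in these counts too. They had 1 to 18 cytosolic genes higher in males and 1 to 20 in females. Their cytosolic medians ran from -0.163 to 0.105 in males and from -0.138 to 0.071 in females. A high count alone therefore does not mark an LLC1 mouse, and the medians of male LLC1 mice 2-2 and 1-4 lay inside the male vehicle range. The summed muscle markers, at 152800 CPM, were lower in male mouse 1-5 than in the other male LLC1 mice (179000 to 227800 CPM), while its neutrophil sum of 142 CPM lay inside their range of 77.4 to 205 CPM. Mice 2-2 and 1-4, with the smallest cytosolic deviations, had the lowest neutrophil sums of the male LLC1 mice, 77.4 and 109.5 CPM against 142 to 205 CPM in the other 4. They also had the lowest erythroid sums, 1216 and 1211 CPM against 1938 to 4295 CPM. The part of these cells in the spread between mice was not tested.

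**Figure D5:**
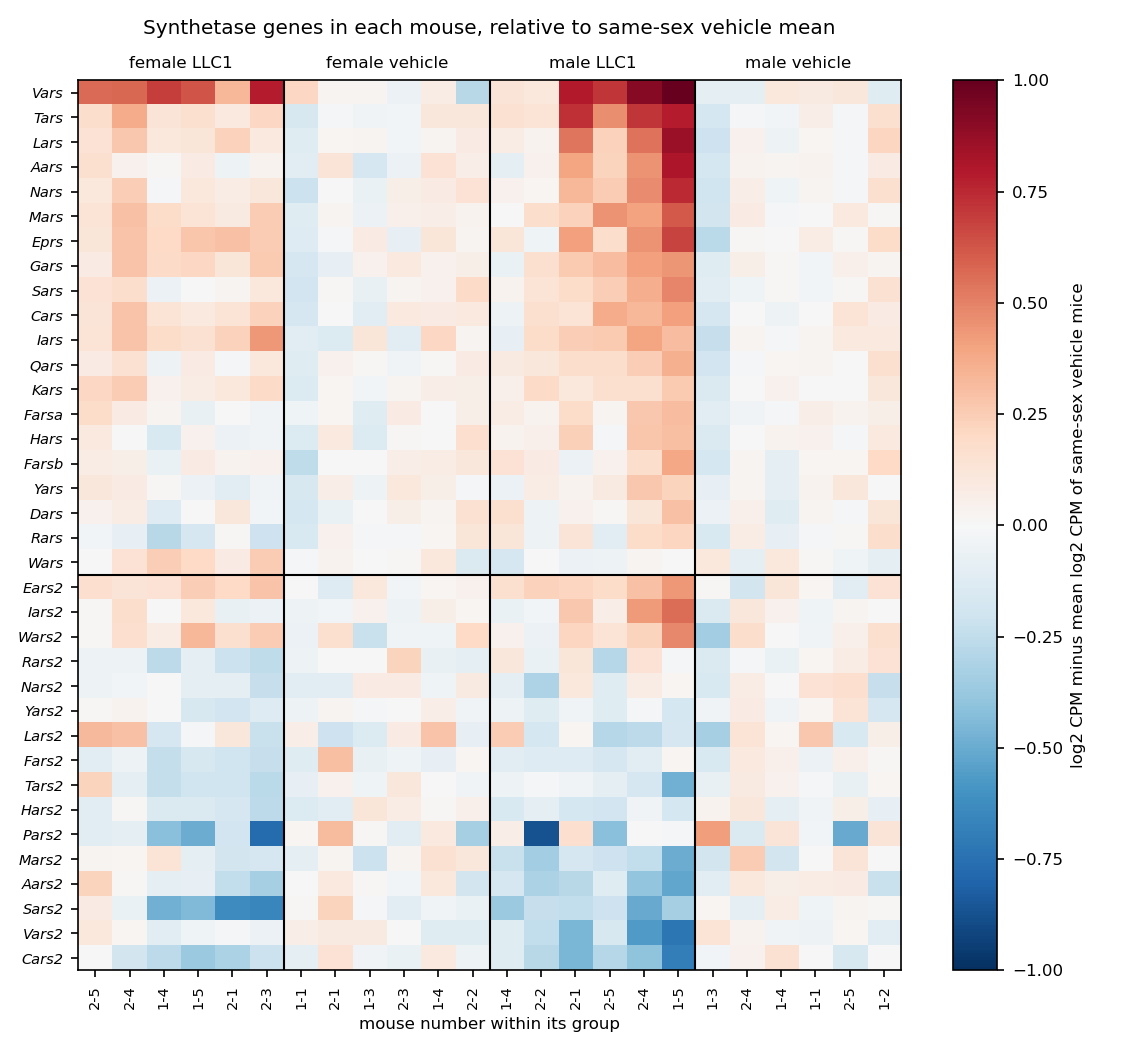
Log2 CPM of the genes in each mouse minus the mean of same-sex vehicle mice, cytosolic genes above and mitochondrial genes below the line with 1 not shown, mice ordered within each group by the cytosolic minus mitochondrial difference. Red cells fill the upper right of the male LLC1 block, led by mouse 1-5. Its lower part is mixed, with more values below 0 than above in each mouse.

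By function, 6 of the 8 cytosolic genes of the multisynthetase complex and 7 of the 12 others rose in males, with median log2 fold changes of 0.21 and 0.24. By catalytic fold, 6 of 9 class I genes and 6 of 10 class II genes rose, with medians of 0.22 and 0.20, leaving aside Eprs, which holds an enzyme of each class. The 12 textbook ATF4 targets among the cytosolic genes held 10 that rose, with a median of 0.29. Of the 8 others 3 rose (Vars, Qars and Kars), with a median of 0.15. Against the 19.5% of all genes called higher in males, each of these shares is higher, and differences between the subsets were not tested.

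In females far fewer synthetase genes were called. Of the cytosolic genes 1 was higher, 0 were lower and 19 did not pass, and of the mitochondrial genes 1 was lower, 0 were higher and 16 did not pass. Over all genes 9.92% were called in females, 4.97% as higher and 4.95% as lower, so these 2 calls of 37 genes are not above the background. The cytosolic fold change was positive for 18 of 20 genes, with a median of 0.12, and the mitochondrial one negative for 13 of 17, with a median of -0.08 (-0.10 without Lars2), against -0.01 over all genes. Wars, Rars, Hars, Lars2 and Rars2 had the opposite sign to that in males, none of them called in either sex.

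Vars was the cytosolic gene called in females. It had 43.4 to 59.6 CPM with a median of 52.4 in female LLC1 mice, and 28.5 to 39.9 CPM with a median of 35.2 in female vehicle mice. All LLC1 mice lay above all vehicle mice, and the log2 fold change was 0.60 ± 0.16 (adjusted p = 0.0194). The call held with any 1 mouse left out. In females the groups did not overlap for 6.55% of all genes, 4.05% with LLC1 above and 2.5% with LLC1 below, and for 4 of the 37 genes, all with LLC1 above: Vars, Mars, Lars and Ears2. The last 3 did not pass, with log2 fold changes of 0.18 ± 0.08 (adjusted p = 0.141), 0.16 ± 0.10 (0.335) and 0.19 ± 0.07 (0.0741).

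Sars2 was the mitochondrial gene called in females, with 6.98 to 11.6 CPM and a median of 7.98 in female LLC1 mice, and 10.15 to 12.8 CPM and a median of 10.8 in female vehicle mice. The 4 lowest LLC1 mice lay below every vehicle mouse and the other 2 among them. The log2 fold change was -0.34 ± 0.10 (adjusted p = 0.0362). The call held when 2-4 or 2-5 of the female LLC1 mice, or 1-4 of the female vehicle mice, was left out, and not without any of the other 9 (adjusted p up to 0.135). It was lost with no filter on low counts and in a fit of the 2 female groups alone. Without female LLC1 mouse 2-5 there were 3 cytosolic calls (Vars, Iars and Wars) and 2 mitochondrial ones (Sars2 and Cars2), with 11.7% of all genes called. Without female vehicle mouse 1-3 or 1-4 there were 2 cytosolic calls, Vars and Iars, with 7.36% and 8.22% of all genes called.

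Whether the response to LLC1 differed between males and females was tested by the interaction of LLC1 with sex. In edgeR 0 of the 37 genes passed, and 0% of all 17773 genes did. DESeq2 and limma-voom called 0 of the 37 as well. At an unadjusted p under 0.05 there were 4: Tars and Rars, with a more positive fold change in males, and Wars and Vars2, with a more negative one. Vars2 had the smallest p. Its log2 fold change was -0.36 in males and -0.02 ± 0.08 in females, where it had 12.8 to 14.8 CPM in LLC1 mice and 12.7 to 14.7 CPM in vehicle mice. The difference, males minus females, was -0.35 ± 0.12 (adjusted p = 0.286). The larger number of calls in males is therefore not shown to be a difference between the sexes.

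Vehicle mice of the 2 sexes differed in 2 of the 37 genes, where 6.23% of all genes were called, 3.28% as higher and 2.95% as lower in males. The sexes did not overlap in 4.31% of all genes, 2.49% with males above and 1.82% with males below, and in 0 of the 37. Eprs had 289 to 396 CPM with a median of 351 in male vehicle mice, and 256 to 304 CPM with a median of 281 in female vehicle mice. The groups overlapped in the lowest male, and the log2 fold change, male over female, was 0.32 ± 0.09 (adjusted p = 0.0388). Lars2 had 8160 to 12340 CPM with a median of 10540 in male vehicle mice, and 6678 to 9369 CPM with a median of 7650 in female vehicle mice. Its groups overlapped too, with a fold change of 0.42 ± 0.12 (adjusted p = 0.0353). Both calls were fragile. Eprs passed without female vehicle mouse 1-3 or 1-4 or male vehicle mouse 1-3, and not without any of the other 9 mice (adjusted p up to 0.101). Lars2 passed without female vehicle mouse 1-1, 1-4 or 2-3 or male vehicle mouse 1-3 or 2-5, and not without any of the other 7 (up to 0.0980). Without male vehicle mouse 1-3 there were 3 cytosolic calls, Eprs, Cars and Iars, with 8.24% of all genes called. The fold change was positive for 18 of 20 cytosolic genes, with a median of 0.13, and for 12 of 17 mitochondrial genes, with a median of 0.06. Over all genes the median was -0.01.

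Promoters were examined because many cytosolic genes rose together in males and ATF4 is known to bind the C/EBP-ATF response element. RefSeq promoter sequences (GRCm38.p6, 250 bases before to 50 bases after each gene start) were at hand for 27 of the 37 genes, 13 cytosolic and 14 mitochondrial. The motif TGATGNAA was searched on both strands, where N is any base. It occurred in 5 of the 27, all cytosolic (Tars, Aars, Gars, Iars and Yars), against 3.97% of 32851 mouse promoters of the same length. The first 4 of these rose in male LLC1 mice and Yars did not pass (log2 fold change 0.11 ± 0.06, adjusted p = 0.189). Of the 8 other cytosolic genes searched, none held the motif in this window, among them Eprs, Mars and Sars, which rose. The promoters of the 5 genes are printed 5′ to 3′ on the strand of the gene, with the motif or its reverse complement in capitals. They lie at chr15:11399609-11399908 (minus strand) for Tars, chr8:111033592-111033891 for Aars, chr6:55037751-55038050 for Gars, chr13:49681880-49682179 for Iars and chr4:129189653-129189952 for Yars, the last 4 on the plus strand.
Tars: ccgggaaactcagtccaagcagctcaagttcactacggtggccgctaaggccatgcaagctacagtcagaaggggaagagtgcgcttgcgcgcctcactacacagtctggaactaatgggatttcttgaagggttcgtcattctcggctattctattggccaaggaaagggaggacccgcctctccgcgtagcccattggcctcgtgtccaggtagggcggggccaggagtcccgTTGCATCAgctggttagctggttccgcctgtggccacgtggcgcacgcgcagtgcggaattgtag
Aars: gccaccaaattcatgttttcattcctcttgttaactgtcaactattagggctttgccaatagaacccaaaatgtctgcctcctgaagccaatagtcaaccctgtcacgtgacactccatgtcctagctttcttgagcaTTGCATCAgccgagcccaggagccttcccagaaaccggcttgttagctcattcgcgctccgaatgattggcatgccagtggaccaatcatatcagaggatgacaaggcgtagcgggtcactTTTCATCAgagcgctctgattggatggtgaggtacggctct
Gars: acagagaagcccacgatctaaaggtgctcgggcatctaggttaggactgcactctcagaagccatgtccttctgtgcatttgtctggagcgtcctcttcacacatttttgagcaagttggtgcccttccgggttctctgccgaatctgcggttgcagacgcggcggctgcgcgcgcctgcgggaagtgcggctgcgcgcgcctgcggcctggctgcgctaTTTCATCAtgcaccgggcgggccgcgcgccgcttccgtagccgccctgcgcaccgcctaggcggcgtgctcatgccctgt
Iars: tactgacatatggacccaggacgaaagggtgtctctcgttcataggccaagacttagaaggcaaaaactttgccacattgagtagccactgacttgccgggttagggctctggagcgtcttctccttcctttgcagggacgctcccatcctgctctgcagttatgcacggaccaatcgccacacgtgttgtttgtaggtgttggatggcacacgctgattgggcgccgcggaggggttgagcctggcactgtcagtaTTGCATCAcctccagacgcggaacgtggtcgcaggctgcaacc
Yars: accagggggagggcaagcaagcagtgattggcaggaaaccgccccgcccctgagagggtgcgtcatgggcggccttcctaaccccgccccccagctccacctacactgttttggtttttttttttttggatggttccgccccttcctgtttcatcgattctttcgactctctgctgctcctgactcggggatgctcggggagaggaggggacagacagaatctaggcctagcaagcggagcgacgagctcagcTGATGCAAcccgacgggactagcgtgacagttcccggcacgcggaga
Aars holds the motif at 2 positions, starting 112 bases before and 9 bases after the gene start counted as 0, and the other 4 genes at 1 each. The same search for the core of the cyclic AMP response element, TGACGT, found it in 1 of 13 cytosolic and 3 of 14 mitochondrial genes, against 7.51% of all promoters. An ETS family element, CCGGAAG, was in 5 of 13 cytosolic and 4 of 14 mitochondrial genes, against 8.86%. For all 3 motifs the 27 synthetase genes were counted by gene and the background by promoter, so the shares are not in the same unit. These matches describe the letters only.

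Of 22 other genes of the ATF4 response, Atf4 included, 5 rose and 3 fell in males, where 36.3% of all genes were called, so the count is at the background. In females 4 rose and 3 fell, where 9.92% of all genes were called, so the female count is above the background. That difference was not tested. The median log2 fold changes were 0.25 in males and 0.19 in females. Atf4 itself had 144 to 291 CPM with a median of 200.5 in male LLC1 mice, and 107 to 130 CPM with a median of 117.5 in male vehicle mice. All male LLC1 mice lay above all male vehicle mice, with a log2 fold change of 0.80 ± 0.13 (adjusted p = 0.000128). In females Atf4 did not pass (0.18 ± 0.13, adjusted p = 0.429). The male LLC1 mice with the least cytosolic synthetase mRNA, 1-4 and 2-2, had the lowest Atf4 levels, at 144 and 146 CPM, and mouse 1-5, with the most, had the highest, at 291 CPM. Mice 1-4 and 2-2 also had the lowest neutrophil and erythroid sums of the male LLC1 mice. A relation between Atf4 and the synthetase genes across mice was not tested.

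Eif4ebp1, which encodes a repressor of translation initiation, rose by 2.08 ± 0.28 in males (adjusted p = 2.17e-05) and 1.12 ± 0.27 in females (0.0121). Slc3a2, a subunit of amino acid transporters, rose by 0.72 ± 0.11 in males (3.98e-05) and 0.405 ± 0.105 in females (0.0157). Ddit4 and Vldlr made up the male count, at 2.03 and 0.54. Chac1, which degrades glutathione, and Slc7a5, the partner of Slc3a2 in leucine transport, rose in females by 2.35 ± 0.41 and 0.89 ± 0.24. Psph and Pycr1, which make serine and proline, fell in both sexes, by 0.48 and 0.47 on the log2 scale in males and by 0.48 and 0.53 in females. Cct6a, on the other strand, overlaps 10.4% of the exon length of Psph with 11.1 times its counts. Aldh18a1, also of proline synthesis, fell by 0.74 in males, and Atf5 fell by 0.32 in females. The classical ATF4 targets Asns, Ddit3 and Trib3 did not pass in either sex. Their log2 fold changes were 0.71 ± 0.30, -0.08 ± 0.11 and 0.40 ± 0.19 in males, and 0.62 ± 0.28, -0.12 ± 0.11 and 0.21 ± 0.19 in females. Fgf21 and Gdf15 were too low to test.

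Of 11 cytosolic partners of charging 3 rose and 4 fell in males, against 19.5% and 16.8% of all genes, and 0 rose and 1 fell in females, against 4.97% and 4.95%. Their median log2 fold changes were -0.06 in males and -0.09 in females, and the difference from the synthetases was not tested. Aimp2, a scaffold of the multisynthetase complex, had 29.8 to 97.3 CPM with a median of 53.1 in male LLC1 mice, and 105.5 to 119 CPM with a median of 114 in male vehicle mice. All LLC1 males lay below all vehicle males, with a log2 fold change of -0.93 ± 0.18 (adjusted p = 0.000586). In females Aimp2 had 59.8 to 115 CPM in LLC1 mice and 107 to 137 CPM in vehicle mice (-0.58 ± 0.18, adjusted p = 0.0437). Eif2ak1, on the other strand, overlaps 29.4% of its exon length with 1.10 times its counts, and fell by 0.30 in males. The other scaffolds, Aimp1 and Eef1e1, did not pass, at 0.03 ± 0.09 and 0.01 ± 0.10 in males and -0.08 ± 0.09 and -0.09 ± 0.10 in females. In males Trnt1, which adds the CCA end to transfer RNA, rose by 0.39 ± 0.10 (Crbn, on the other strand over 3.26% of its exon length with 1.92 times its counts, rose by 0.48), Dtd1, a proofreading deacylase, by 0.33 ± 0.10, and Xpot, the nuclear exporter of transfer RNA, by 0.26 ± 0.10. Pstk, a kinase of selenocysteine synthesis, fell by 0.44 ± 0.10, Dtd2 by 0.41 ± 0.12 and Tarsl2, synthetase-like by its name, by 0.27 ± 0.08. Tarsl2 falls outside the rule on gene names, so it is not counted among the cytosolic synthetase genes above. Ikzf5 covers 58.8% of the exon length of Pstk on the other strand with 2.10 times its counts, so the value of Pstk is uncertain.

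Of 10 mitochondrial partners 1 rose and 2 fell in males, a smaller share than the 36.3% of all genes called, and 0 rose and 2 fell in females, against 9.92%. All 10 fold changes were negative in females, and the medians were -0.15 in males and -0.18 in females. Qrsl1, a subunit of the amidotransferase that completes glutaminyl-tRNA, had 8.18 to 15.9 CPM with a median of 11.4 in male LLC1 mice, and 15.0 to 17.7 CPM with a median of 16.5 in male vehicle mice. The log2 fold change was -0.48 ± 0.11 in males (adjusted p = 0.00228) and -0.44 ± 0.11 in females (0.0139). Tufm, the elongation factor that carries charged transfer RNA to the mitochondrial ribosome, fell by 0.21 ± 0.06 in males (0.00559) and 0.18 ± 0.06 in females (0.0345). Gtpbp3, which modifies mitochondrial transfer RNA, rose by 0.34 ± 0.09 in males (0.00605). The 37 mitochondrially encoded genes, transfer RNAs among them, were at 0 counts in the table in every library.

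Interferon-stimulated genes were listed because Wars is one of them. Of 15 tested, 4 fell and 0 rose in males, against 16.8% and 19.5% of all genes (among them Ifit3, Gbp3 and Gbp2, log2 fold changes -1.07, -1.03 and -0.46), and 2 rose and 0 fell in females, against 4.97% and 4.95% (Isg15 and Rsad2, 2.28 and 2.11). The medians were -0.18 in males and -0.15 in females. Isg15 reached 29.0 CPM in 1 female LLC1 mouse, against a median of 2.99 CPM in female LLC1 and 1.36 CPM in female vehicle mice. Wars did not pass in either sex, at -0.04 ± 0.06 in males and 0.16 ± 0.06 in females (adjusted p = 0.0901).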

How the data were processed

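Poly(A) RNA libraries of gastrocnemius were made with a TruSeq kit, which keeps no strand, per the labels' protocols. The submitters' processing notes list CASAVA, STAR and featureCounts with build mm10. Versions, options and annotation: not given in the sources used here. What the authors deposited was whole-number read counts per gene, not normalized, for 24 libraries, with exon lengths. Genes were tested with edgeR 4.0.16 (R 4.3.3; quasi-likelihood F-test, TMM factors 0.924 to 1.10, filterByExpr, robust dispersions, 4 group means, 20 residual degrees of freedom) and called at a Benjamini-Hochberg adjusted p under 0.05 over 17773 genes. SE is the log2 fold change over the square root of F. Mean log2 CPM used a prior count of 2. Alternatives were DESeq2 1.42.0, limma-voom 3.58.1, other factors and filters, replicate blocks, 2-group fits and leaving out each mouse; the fit was tested on simulated data. The 60 same-group pairs of libraries differed by a chi-square per degree of freedom of 8.36 to 168, so none repeated another. Overlaps and copies (BLAST 2.17.0) used GENCODE M21, in which 23 of the 37 genes have the same start and end as in the table.

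The decision to describe these 37 genes, the 9 lists (partners of charging in the cytosol and in mitochondria, ATF4 and its other targets, interferon-stimulated genes, and markers of muscle, neutrophils, erythroid cells, macrophages and epithelium) and the tests were made with earlier results of these data known, although the rule for the 37 uses names only. In each comparison, levels per mouse are given for at most the 8 cytosolic and 5 mitochondrial called genes with the smallest adjusted p (Sars2, Wars and Lars2 in males were added after their values were seen), or with none called for the gene of smallest p. From each list up to 4 called genes with the smallest adjusted p in each sex were eligible to be named, with Atf4, Asns, Ddit3, Trib3, Aimp1, Aimp2 and Eef1e1 always, and others where a count of 5 or fewer is spelled out. Some genes are counted in the totals but are not reported by name here.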

Additional observations from a re-analysis of the deposited data

Results flagged for a closer look

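Of 148 sets of 6 mice (37 genes in 4 groups), 10 held a mouse whose gap to its nearest neighbour exceeded 0.625 of the whole range, the 95% critical value of Dixon's test. Chance flags about 1 in 20 such sets. In female LLC1 mice Tars reached 58.4 CPM in mouse 2-4, where the next was 51.9, Tars2 reached 31.7 CPM in mouse 2-5, next to 25.6, and Farsb was lowest in mouse 1-4 at 58.3 CPM, next to 62.3. In female vehicle mice Fars2 (24.1 CPM, next 19.9) and Sars2 (12.8 CPM, next 11.04) were highest in mouse 2-1, Rars2 (18.2 CPM, next 15.6) was highest in mouse 2-3, and Farsb was lowest in mouse 1-1 (51.1 CPM, next 60.6). In male LLC1 mice mouse 1-5 had the highest Fars2 (21.3 CPM, next 19.5) and the lowest Tars2 (18.9 CPM, next 23.5). In male vehicle mice Iars was lowest in mouse 1-3 (92.8 CPM, next 108.0). No synthetase gene differed in its response between the sexes by the interaction test in edgeR at an adjusted p of 0.05.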

How the results depend on the processing

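No synthetase gene that passed in the main analysis or in an alternative changed direction between the 2. Over the alternatives other than leaving out a mouse, 35 calls on single genes were lost and 15 gained; with a mouse left out, 52 were lost and 14 gained. In males the count of cytosolic genes called was 9 to 14 and of mitochondrial genes 5 to 8 with 1 mouse left out; in females 1 to 3 and 0 to 2; between vehicle mice of the 2 sexes 0 to 3 and 0 to 1; for the interaction 0. Over all genes the share called in these fits was 27.8% to 39.9% in males and 5.13% to 11.7% in females. Between vehicle mice of the 2 sexes it was 3.67% to 8.24%. With 1 mouse left out, the difference between cytosolic and mitochondrial means was 0.30 to 0.41 in males and 0.18 to 0.24 in females.

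In females DESeq2 called 4 cytosolic and 2 mitochondrial genes (12.7% of all genes), and no filter left 0 mitochondrial ones (4.28% of all genes). In females a fit of the 2 groups alone called 5 cytosolic and 0 mitochondrial genes (14.8% of all genes). That fit called 8 cytosolic genes in males (31.9% of all genes) and 2 in the sex comparison (9.2% of all genes). With medians over genes in place of means, a choice made after seeing the data like the leaving out of Lars2, the male difference between cytosolic and mitochondrial genes was 0.59. With upper-quartile factors 10 cytosolic genes rose in males, and 1 mitochondrial gene rose and 7 fell. Over all genes these factors called 36% in males, 45.9% of them as higher, against 53.7% as higher in the main fit. The cause of each was not tested. A replicate block on the full mouse number left 0 cytosolic and 0 mitochondrial calls in females, 3 cytosolic calls in males and 0 and 0 in the sex comparison. Over all genes it called 2.7% in females, 1.51% in the sex comparison and 20.3% in males, 53.8% of the last as higher. All 3 male cytosolic calls were higher. As 3 of 20 genes they are a smaller share than the 20.3% called in either direction. They are a larger share than the genes called as higher alone, which are 53.8% of that 20.3%. Neither difference was tested. The same block left 5 mitochondrial calls in males, 1 higher and 4 lower. A block on the first digit gave 2 mitochondrial calls in females and 11 cytosolic calls in males, without Iars and Kars. It called 10.6% and 36.1% of all genes in females and males. Same-numbered mice of different groups did not deviate together (20 pairs, r from -0.17 to 0.30, 3 over 0.1), so the full number was not taken to pair the mice. Of pairs with the same first digit 22 of 106 were over 0.1, against 13 of 110 with different ones (median r 0.025 and -0.017). These values are higher for the same first digit, and whether that digit marks a shared effect was not tested. The main fit holds no term for it. Macrophage marker sums were 278 to 396 CPM in female vehicle mice with first digit 1 and 180.2 to 209.9 CPM in those with 2.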
